A study of Homo sapiens with 15 samples.

Results

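The regions described here are the shores of unmethylated regions (UMRs) in HCT116 cells, an epithelial line from a human colorectal carcinoma: the flanks, up to 2 kb wide, of stretches of DNA that stayed unmethylated in every untreated library. Whole-genome bisulfite sequencing, which reads methylated cytosines as C and unmethylated cytosines as T, was used to measure DNA methylation (mC), the percentage of reads at CpG sites that were methylated. All cells expressed, on addition of doxycycline, a short hairpin RNA (shRNA) that targets the maintenance factor UHRF1 (shUHRF1; clonal lines Cl.3, Cl.6 and Cl.9) or the maintenance methyltransferase DNMT1 (shDNMT1; bulk populations R1 and R2), both aimed at the 3′UTR of the messenger RNA. Each of these 5 populations gave a Baseline library (day 14 without doxycycline, with its solvent DMSO), a Knockdown library (day 14 with 10 ng/mL doxycycline) and a Recovery library (day 28, after 14 days with doxycycline and 14 days without it), which made 15 libraries in 6 groups of 3 or 2. The hairpin, the use of clones or bulk cells and the deposited count table differ together, so none of them can be told apart in a comparison between shUHRF1 and shDNMT1. A clone is derived from a single cell, and no source used here says that the shDNMT1 populations came from separate infections, so the spread between R1 and R2 may be technical. Levels of the targeted transcripts or proteins were not analysed here. All Baseline and Knockdown libraries are from day 14 and all Recovery libraries from day 28, so Recovery cannot be told apart from longer culture.

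Members were found by position. Autosomal pieces of at least 300 bp that were called UMR in all 5 Baseline domain lists and lay in no Baseline partially methylated domain (PMD) numbered 12534, with a median length of 1451 bp. Of these, 9522 (76.0%) held the 5′ end of a protein-coding gene in GENCODE 44. A shore side was the 2 kb next to such a piece without any base called UMR or low-methylated region (LMR) in any Baseline list. Of 25068 possible sides, 24698 kept at least 1 base, and together they held 783610 CpGs, 2.81% of the 27852739 autosomal CpGs. Because Baseline calls placed the edges, low mC inside the pieces and high mC outside them at Baseline follow from the rule, and every difference from Baseline below is given as description. Distances are counted from those same edges, and kept and regained shares divide by Baseline values, so their profiles along the shore carry no test. Gene orientation, CpG spacing and the change from Knockdown to Recovery did not enter the rule.

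CpG methylation is copied to the new DNA strand after replication by DNMT1, which UHRF1 brings to sites methylated on the old strand alone. Promoters of active genes sit in CpG-rich unmethylated regions, often CpG islands, and the shores next to them are stretches of intermediate CpG density in which methylation differs between tissues and between normal colon and tumours. In the shores described here the nearest other CpG lay at least 20 bp away for 29.6% of CpGs in the first 400 bp (the edge), for 44.9% at 1600 to 2000 bp (the outer shore) and for 46.8% in a distant flank 8 to 10 kb from the nearest piece.

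The sequences below show 30 bases of hg38 around the best covered CpG in the first 400 bp of 6 shore sides. They belong to the 3 named sides that kept the largest part of their Baseline mC at Knockdown in the shUHRF1 clones (ZNF397, ECD/FAM149B1 and RHEB) and the 3 that kept the smallest (H4C2, RCC1 and ADAM19), so that sites from sides with opposite behaviour can be read together. CpGs are in capitals, and each stretch is on the forward strand of the genome.
ZNF397: aatccagaaagCGgCGaggaagctgtgacc
ECD/FAM149B1: cattcttctgcataCGggtatcagttttcc
RHEB: tgactaagCGtcacCGaCGgcCGaaggact
H4C2: tccctttgctttagCGcatttttacatttt
RCC1: gggcctCGtgtctgCGcctgcatattccta
ADAM19: gaccaagccttcCGCGaaatctgcttatag

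The ZNF397 stretch lies in coding sequence of that gene (chr18:35242810-35242839), the ECD/FAM149B1 stretch in an intron of ECD (chr10:73167017-73167046) and the ADAM19 stretch in an intron of ADAM19 (chr5:157574700-157574729). The RHEB (chr7:151520378-151520407) and H4C2 (chr6:26027852-26027881) stretches lie outside annotated genes, and the RCC1 stretch (chr1:28508675-28508704) lies in an RCC1 intron that also encodes the small nucleolar RNA SNORA73B. The central CpG of the ECD/FAM149B1 stretch has its nearest neighbour 191 bp away and that of the H4C2 stretch 48 bp away, whereas the other 4 central CpGs have a neighbour within 2 to 8 bp. The stretches are grouped by the kept share of the whole side, which the single CpG need not follow in every clone. At the isolated H4C2 CpG mC fell from 92.3%, 81.8% and 100% at Baseline to 7.14%, 35.7% and 6.45% at Knockdown in Cl.3, Cl.6 and Cl.9, and at the isolated ECD/FAM149B1 CpG it fell from 100% in each clone to 88.9%, 78.6% and 50%. These single-site values rest on 9 to 31 reads per library. The central RHEB CpG went from 100% in each clone to 50%, 75% and 90.9% at Knockdown in Cl.3, Cl.6 and Cl.9, on 4, 8 and 11 reads.

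The read counts of a library, summed over autosomal CpGs, came to between 309268341 and 577680690, with a median of 11 to 21 reads per CpG. In such sums, here and below, a read that covers several CpGs counts at each of them. Summed over a 200 bp distance bin of all shores, at least 694731 reads stood behind each value, and the Wilson 95% interval was at most 0.112 points to each side, so the spread between populations rather than depth limits the comparisons. These intervals cover counting error only, and they take counts at neighbouring CpGs as independent, so they are too narrow where a read covers several CpGs. Within the inner 1 kb of the pieces Baseline mC was 4.49% in Cl.6 and between 1.76% and 2.40% in the other 4 populations. With 3 clones, 2 bulk populations and 3 against 2, exact permutation tests of a single value cannot go below p = 0.25, 0.5 and 0.2, so no such test could pass 0.05 and none is given.

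Shores lost methylation in all 5 populations during Knockdown, and how much came back by Recovery separated the shRNAs. Shore mC in Cl.3 was 93.1% at Baseline, 75.9% at Knockdown and 82.7% at Recovery. In Cl.6 it was 93.5%, 69.6% and 80.0%. In Cl.9 it was 91.5%, 53.7% and 67.4%. Cl.9 lost the most of the 3 clones and stood apart from Cl.3 and Cl.6 at both later stages. The authors picked Cl.9 for their transgene experiments because its methylation loss was the deepest, so its place among the clones was known. Its counts were deposited in a table apart from that of Cl.3 and Cl.6. Its median depth was 20 to 21 reads per CpG, against 11 to 14 in those clones, and clone, table and depth cannot be told apart. In R1 shore mC was 91.5%, 41.2% and 89.4%. In R2 it was 91.6%, 40.0% and 89.5%. The bulk populations lay close together at every stage, fell below every clone at Knockdown and rose above every clone at Recovery. From Baseline to Knockdown the change was −26.3 ± 10.5 points (SD, n = 3) with shUHRF1 and −50.9 ± 0.863 points (n = 2) with shDNMT1, a difference of 24.6 points. From Knockdown to Recovery shores regained 39.9% ± 3.66 of the lost mC with shUHRF1 and 95.9% ± 0.145 with shDNMT1, where the regained share is the rise from Knockdown to Recovery divided by the fall from Baseline to Knockdown.

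**Figure D1:**
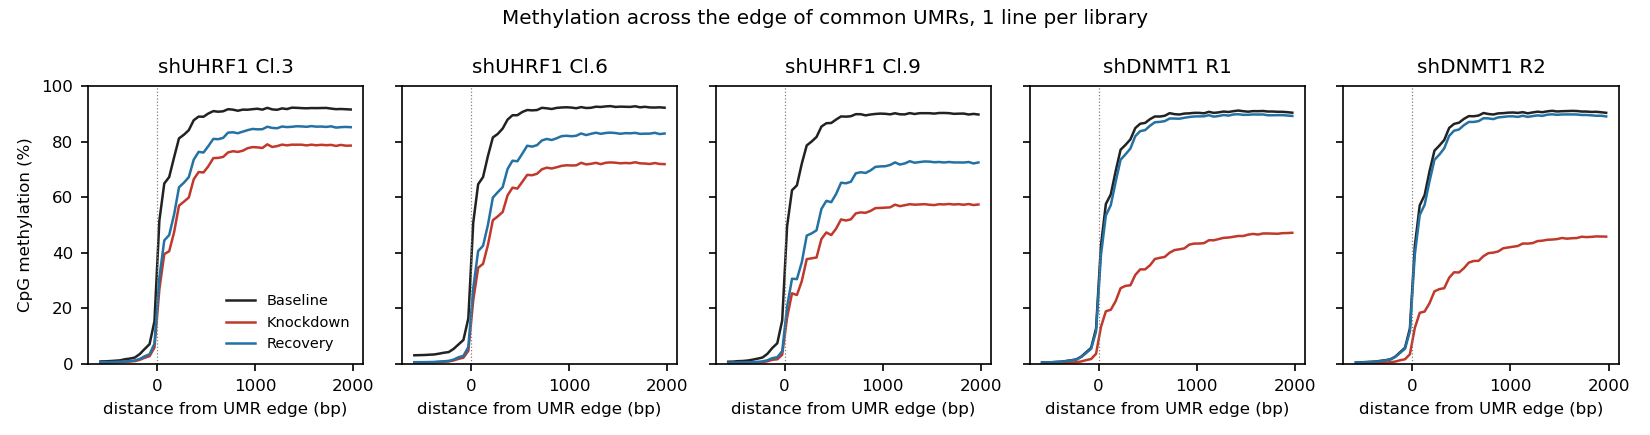
mC in percent (y axis) against distance in bp from the edge of the common unmethylated piece (x axis), with a panel for each of the 5 populations and a line each for Baseline, Knockdown and Recovery, over all CpGs, bases called UMR or LMR in a Baseline list included. In the clones the Recovery line stays far below Baseline near the edge, while in R1 and R2 it returns close to Baseline at all distances.

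The part of the shore next to the edge kept the smallest share of its methylation. The kept share is Knockdown mC as a percentage of Baseline mC in the same population. From the first to the last 200 bp of the shore it rose from 65.9% to 86.1% in Cl.3, from 59.4% to 78.5% in Cl.6 and from 43.4% to 63.9% in Cl.9. It rose from 32.9% to 52% in R1 and from 32.1% to 50.7% in R2. In the clones the rise was nearly complete by 1000 bp, where the kept share was 84.8%, 77.5% and 61.9%, and the outer shore differed from the distant flank by −0.702 ± 0.135 points (n = 3). In the bulk populations the kept share was still rising at 2 kb, and it was 54.9% in R1 and 53.7% in R2 in the distant flank, with the outer shore at −3.19 ± 0.106 points from that flank.

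Over the whole edge the kept share was 60.4% ± 12.0 with shUHRF1 against 76.1% ± 11.2 in the outer shore, a difference of −15.7 ± 1.08 points with the same sign in 3 of 3 clones. With shDNMT1 the edge kept 34.3% ± 0.787 and the outer shore 51.1% ± 0.976, a difference of −16.8 ± 0.189 points. The gap between edge and outer shore differed by 1.04 points between shRNAs over all CpGs, by 4.57 points over CpGs at 85% or more in the other Baselines (−11.4 against −15.97) and by 0.00262 points next to pieces of at least 1000 bp, so the size of this difference depends on the CpGs taken. Edges placed for each population from the Baseline lists of the other 4 populations gave −15.5 ± 1.09 and −16.7 ± 0.177 points. The gap depends on the scale: edges started lower at Baseline (87.5% against 94.0% in the clones and 84.4% against 93.6% in bulk), and as a change in log odds of methylation edge minus outer shore was −0.03 ± 0.126 in the clones, with signs that differ between clones, and +0.19 ± 0.008 with shDNMT1, where the edge lost less.

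The whole shore, compared with the distant flank, differed in kept share by −5.32 ± 0.703 points with shUHRF1 and −9.91 ± 0.060 points with shDNMT1. Distances run to the nearest piece, so a side with another piece close by gave shore CpGs but no distant flank. The comparison is therefore not made within the same set of pieces. On the log odds scale those differences were −0.18 ± 0.051 and −0.19 ± 0.002, which are close to equal. Chosen by size, the 55 pieces of 200 bp or more but under 300 bp, just outside the length limit, had shore mC of 75.4% at Cl.3 Knockdown, and the 152 pieces from 300 bp to under 400 bp, just inside it, had 75.8%.

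**Figure D2:**
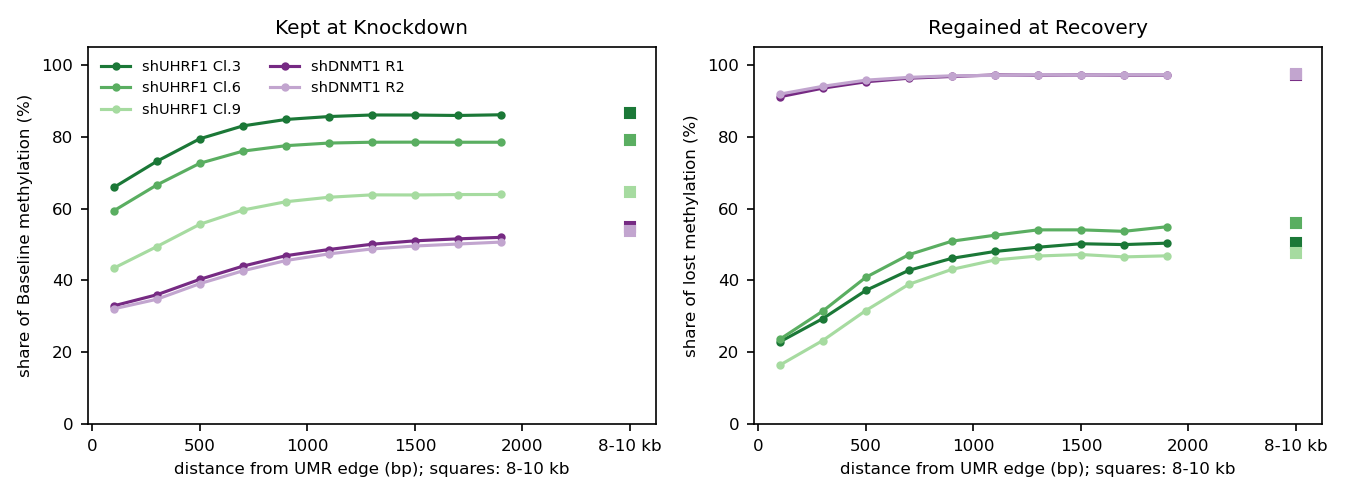
Kept share at Knockdown and regained share at Recovery, in percent (y axes), by distance from the edge in bp (x axes), a line per population, with the distant flank at 8 to 10 kb as the last point. Kept shares climb with distance in all 5 populations, and regained shares climb steeply in the clones (from 16.4 to 23.6% in the first bin to 46.9 to 54.9% in the last shore bin) and little in R1 and R2 (from 91.1 and 91.9% to 97.2% in both).

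The level profile was shifted outwards at Knockdown and, in the clones, still at Recovery. Positions were interpolated between the midpoints of 50 bp steps in a profile of all CpGs that ran from inside the pieces across the shore. The bases called UMR or LMR in a Baseline list were put back, and each position is relative to the outer-shore level of the same library. Positions under 25 bp rest in part on CpGs inside the pieces, and shifts under 50 bp are smaller than a step. The distance at which mC reached 50% of its outer-shore level lay 17.1 bp outside the piece in Cl.3 at Baseline, 74.1 bp at Knockdown and 68.1 bp at Recovery. In Cl.6 it lay at 18.2, 125 and 96.5 bp. In Cl.9 it lay at 18.3, 163 and 172 bp. In every clone the Recovery position lay farther out than the Baseline position. In Cl.9 it was also farther out than at Knockdown, although mC itself rose near the edge (from 16.7% to 20.6% at 25 bp), and at 1975 bp, in the outer shore to which the position refers, it rose from 57.4% to 72.5%. In R1 the positions were 34.2, 184 and 44.5 bp, and in R2 they were 35, 186 and 43.7 bp. Against their own Baseline the bulk populations ended 10.3 and 8.74 bp out, the clones 51.0, 78.3 and 153 bp. The size of the shift depends on the level chosen: at 0.8 of the outer-shore level, Knockdown lay 179, 182 and 220 bp outside Baseline in the clones and 374 and 382 bp in R1 and R2, and Recovery lay 164, 177 and 239 bp and 17.2 and 15.8 bp outside it.

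Regain was likewise smallest at the edge when taken as a share of the loss. With shUHRF1 the edge regained 25.0% ± 4.05 and the outer shore 50.4% ± 3.81, a difference of −25.4 ± 1.59 points (lower in 3 of 3 clones). With shDNMT1 the edge regained 92.9% ± 0.369 and the outer shore 97.2% ± 0.068, a difference of −4.32 ± 0.300 points (lower in both populations). The gap with shUHRF1 minus that with shDNMT1 was −21.1 points. As percentage points of mC the picture differed: the edge gained 8.38 ± 1.25 points and the outer shore 11.1 ± 4.52 with shUHRF1, a difference whose sign varied between clones, while with shDNMT1 the edge gained 51.5 ± 0.80 points, 6.96 ± 0.126 more than the outer shore. As log odds of methylation the edge differed from the outer shore by −0.29 ± 0.079 with shUHRF1 and −0.27 ± 0.002 with shDNMT1 (difference −0.03). Over CpGs at 85% or more in the other Baselines the values were −0.32 ± 0.076 and −0.20 ± 0.008 (difference −0.12). The edge deficit in regain thus has the same direction with both hairpins as a share and as log odds, and its difference in size between hairpins depends on the scale and the CpGs taken.

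Domain calls made separately on each library moved with these levels. No shore base was called UMR at Baseline, as the rule requires. At Knockdown UMR calls covered 30.3% of the edge in Cl.3, 39.6% in Cl.6, 67.3% in Cl.9, 94.9% in R1 and 95.8% in R2. At Recovery they covered 19.8%, 24.7% and 48.6% in the clones, but 2.58% in R1 and 2.65% in R2. UMR calls thus expanded over nearly the whole edge with shDNMT1 and then retreated, and in the clones a part of the expansion remained. In the outer shore UMR calls at Knockdown covered 0.582%, 1.17% and 8.53% in the clones, against 33.1% in R1 and 37.6% in R2. PMD calls there covered 4.33%, 11.9% and 36.4% in the clones and 12.3% and 11.6% in R1 and R2. Calls of highly methylated domains there fell from 97.2%, 96.6% and 97.6% at Baseline to 66.7%, 24.6% and 0.0129% in the clones. In R1 and R2 they fell from 97.1% and 96.8% to 0.00429% in each. UMR, LMR and PMD calls also depend on the threshold that the caller set in each library. Highly methylated domains were instead the sequence left by those calls, kept by a single minimum of mean mC. Outer-shore mC at Knockdown was 81.1% (Cl.3), 74.4% (Cl.6), 59.4% (Cl.9), 48.5% (R1) and 47.2% (R2). Only the Cl.3 value lay above that minimum.

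**Figure D3:**
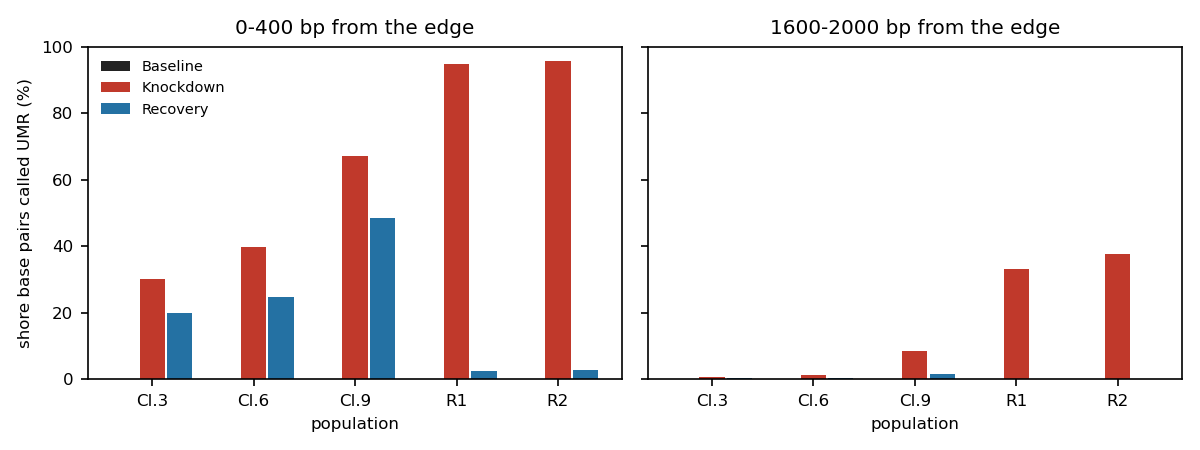
Percentage of edge and outer shore bases covered by UMR calls (y axis) at Baseline (all 0), Knockdown and Recovery of each population (x axis). The bars of R1 and R2 exceed 94% at the edge at Knockdown and are below 3% at Recovery, whereas Cl.9 still holds 48.6%.

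The side of the shore relative to the gene was not used to find the members, and edges that faced into the gene kept less methylation than edges that faced away from it. Sides were assigned from the protein-coding 5′ ends inside the piece: 8535 lay upstream of the gene, 8248 downstream in the transcribed gene, 1798 next to divergent genes and 5816 next to pieces without a protein-coding 5′ end, and 301 lay downstream of a short gene and entered neither side of the comparison. At the edge, downstream sides kept 63.1%, 58.0% and 36.3% of their mC in Cl.3, Cl.6 and Cl.9, and upstream sides kept 74.97%, 67.9% and 54.7%. Downstream edges kept less in every clone. In R1 and R2 downstream edges kept 31.6% and 30.7%, and upstream edges 36.6% and 35.3%. The difference was −13.4 ± 4.45 points with shUHRF1 and −4.82 ± 0.240 with shDNMT1, or −8.56 points between the shRNAs. Without Cl.9 the shUHRF1 difference was −10.9 points. Baseline mC of the edges differed by −1.31 ± 1.06 and −1.52 ± 0.053 points between downstream and upstream. On the log odds scale the differences were −0.40 ± 0.101 and −0.11 ± 0.004, and standardising both sides to the same distribution of CpG spacing left −12.8 and −4.70 points.

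Divergent edges, which point into a gene on both sides, kept 64.3%, 60.02% and 37.6% in the clones, close to downstream edges. Edges of pieces without a protein-coding 5′ end kept 73.7%, 65.8% and 51.6%, close to upstream edges. In the outer shore the downstream-minus-upstream difference in kept share was 0.0279 ± 0.550 points in the clones, with signs that differ, and −1.002 ± 0.102 in bulk. The contrast by gene side was therefore seen at the edge in kept share, although on the log odds scale outer downstream shores also lost more (−0.27 ± 0.025 and −0.31 ± 0.002), from a Baseline 1.90 and 1.80 points higher. The median distance from the 5′ end to the edge was 538 bp upstream and 911 bp downstream, and the part of this distance in the contrast was not tested. Over the whole 2 kb shore, not the edge alone, 7315 pieces had both an upstream and a downstream side, and the downstream side kept more in 36.8% in Cl.3, 41.4% in Cl.6, 32.3% in Cl.9, 40.1% in R1 and 41.0% in R2.

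Taken as a share of the loss, downstream edges also regained less than upstream edges: 20.6% ± 4.61 against 28.9% ± 3.52 with shUHRF1 and 91.7% ± 0.503 against 93.4% ± 0.299 with shDNMT1. The differences were −8.34 ± 1.10 points (lower in 3 of 3 clones) and −1.69 ± 0.204 points (lower in both bulk populations). Since downstream edges lost more, the points gained were 8.12 ± 0.733 downstream and 8.50 ± 1.59 upstream in the clones, a difference of −0.38 ± 1.11 whose sign varied between clones. In bulk the downstream edges gained 1.88 ± 0.051 points more. As log odds of methylation the downstream-minus-upstream difference in gain was −0.03 ± 0.010 in the clones, small beside gains of 0.34 and 0.37, and +0.06 ± 0.002 in bulk, where the sign was opposite to that of the shares. In the outer shore the order of the regained shares was the opposite, with downstream sides 5.36 ± 0.871 points above upstream sides in the clones and 0.196 ± 0.044 in bulk.

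**Figure D4:**
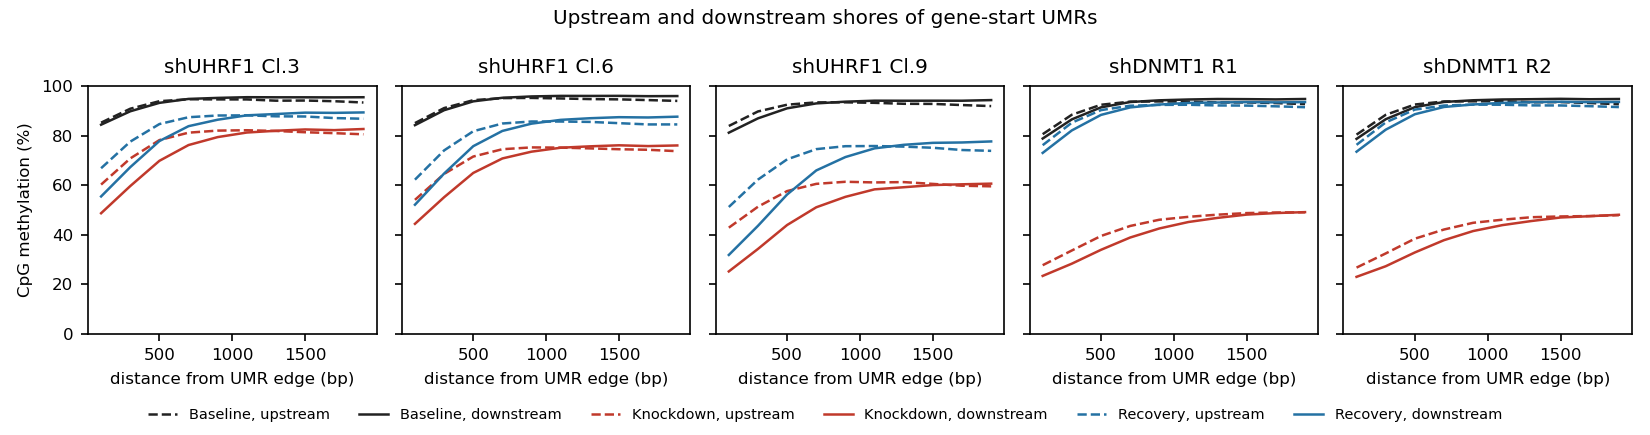
mC in percent (y axis) by distance from the edge in bp (x axis) of upstream (dashed) and downstream (solid) shore sides at Baseline, Knockdown and Recovery, with a panel per population. At Knockdown the downstream line lies below the upstream line near the edge in all 5 panels, with downstream minus upstream over the edge between −17.0 and −9.14 points in the clones and between −4.74 and −4.41 points in R1 and R2. Over the outer shore it was 1.68, 1.90 and 0.825 points in Cl.3, Cl.6 and Cl.9, where the lines have crossed. In R1 and R2 it was −0.0819 and 0.0522 points, where they meet.

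CpGs far from their neighbours kept a smaller share at the edge than CpGs close together, by more in the clones than in the bulk populations. Edge CpGs with a neighbour 2 to 9 bp away kept 78.0% in Cl.3, 72.3% in Cl.6 and 57.4% in Cl.9, and those at 35 bp or more from the nearest CpG kept 59.95%, 53.3% and 33.7%. In R1 and R2 the close CpGs kept 36.6% and 35.3% and the isolated CpGs 33.4% and 32.7%. The kept share of isolated CpGs minus that of close CpGs was −20.2 ± 3.02 points with shUHRF1 and −2.94 ± 0.481 points with shDNMT1. In the outer shore the same contrast was −17.1 ± 5.96 and −9.95 ± 0.559 points, so that the bulk populations showed a spacing contrast there as well. Isolated edge CpGs started lower at Baseline (83.1% against 91.4% in Cl.3 and 79.6% against 87.9% in R1), and the contrast depends on the scale. As a change in log odds from Baseline to Knockdown, isolated minus close edge CpGs came to −0.19 ± 0.102 with shUHRF1 (negative in 3 of 3 clones) and +0.37 ± 0.021 with shDNMT1, where isolated CpGs lost less. In the outer shore it was −0.30 ± 0.085 with shUHRF1 and +0.17 ± 0.029 with shDNMT1, again opposite in sign. Isolated CpGs with A or T on both sides, the sequence context that loses methylation most in dividing cells, had edge mC at Knockdown of 38.8%, 33.8% and 18.1% in the clones (6462 CpGs), below the 53.7%, 48.2% and 30.5% of isolated CpGs in other contexts (18452 CpGs). In R1 and R2 the values were 22.2% and 21.9% against 28.1% and 27.4%. Their Baseline mC was lower too, 76.5% against 85.4% in Cl.3 and 72.3% against 82.2% in R1. The lower level at Knockdown is therefore not by itself a larger loss.

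For single shore sides, the quasi-likelihood test of edgeR was applied to methylated and unmethylated reads, in a fit over 24195 shore sides with enough CpGs and reads (503 sides were not tested) and 190659 autosomal windows of 2 kb outside the shores, with each population as a block. Effects are log2 ratios of the methylated-to-unmethylated odds, and calls have a Benjamini-Hochberg adjusted p under 0.05 over all features. From Knockdown to Recovery of shUHRF1, 19223 shore sides rose (79.5%), against 69.2% over all features called higher, and 0 fell (0 at an unadjusted p under 0.05, and 0 by limma). The median effect was 0.82 in shores and 0.87 in the windows, so that shores rose by about as much as windows and were called more often. Here and below, all features include windows in Baseline PMDs, whereas 1.99% of shore CpGs lay in a Baseline PMD. Shares called in shores and over all features therefore also differ in domain content. The part of the number of CpGs per feature in this was not tested. By limma 12167 shore sides rose, without Cl.6 the edgeR count was 7150, and without the population block it was 0 (5184 at an unadjusted p under 0.05). In the same contrast of shDNMT1 all 24195 sides tested rose (background 99.9%), with a median effect of 3.78 in shores and 3.27 in windows. The rise was smaller with shUHRF1 than with shDNMT1 in 24178 sides (background 97.5%).

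For the contrasts that include Baseline, which the rule used, the counts are given as description. Knockdown was below Baseline in 24191 sides with shUHRF1 (background 99.8%) and 24195 with shDNMT1 (background 100%). The fall was smaller with shUHRF1 in 11912 sides (background 27.9%) and larger in 8, a count that dropped to 127 without R2 and 368 without R1 and was 0 by edgeR without the block (6620 at an unadjusted p under 0.05, and 9297 by limma with the block). At Recovery 24045 sides were below Baseline with shUHRF1 (background 95.2%). With shDNMT1 edgeR called 0 sides below and 0 above Baseline at Recovery (2662 and 9 at an unadjusted p under 0.05), and limma also called 0 (2117 and 16 at an unadjusted p under 0.05).

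Among 23205 sides with at least 10 CpGs and Baseline mC of at least 50% in every population, the median kept share was 82.3% in Cl.3, 75.01% in Cl.6, 59.0% in Cl.9, 45.2% in R1 and 43.96% in R2. The 10th and 90th percentiles were 70.2% and 90.5% in Cl.3, and 35.1% and 55.3% in R1. Fewer than 50% of the Baseline mC remained in 122, 355 and 5536 sides in the clones, against 16830 in R1 and 18018 in R2. Recovery lay above Knockdown in 95.5%, 99.1% and 99.8% of sides in Cl.3, Cl.6 and Cl.9 and in 100% in R1 and R2. Across sides, which are not independent replicates and share CpG density and library depth, Pearson's r of the kept share was 0.771 to 0.784 between clones, 0.759 between R1 and R2 and 0.531 to 0.593 between a clone and a bulk population. Between the left and right side of the same piece it was 0.0388 to 0.127 over 10845 pieces. The kept share of a side thus correlated more between populations than between the flanks of a piece. Chromosome medians of the kept share ran from 81.0% (chromosome 20) to 83.3% (chromosome 21) in Cl.3, the clone with the narrowest spread, and from 56.5% (chromosome 20) to 60.6% (chromosome 13) in Cl.9, the clone with the widest.

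The sides that kept the most in the clones, a description that selects on Knockdown, were next to ZNF397, ECD/FAM149B1, RHEB, POMZP3 and LAMA3, with mean kept shares of 94.4%, 93.7%, 93.5%, 92.4% and 92.3%. RHEB is the GTPase that activates mTORC1, LAMA3 a laminin chain of the epithelial basement membrane and ZNF397 a zinc finger protein. The RHEB side (upstream, 91 CpGs) had 92.5%, 89.0% and 89.2% mC at Knockdown in the clones, from 94.3%, 98.8% and 96.6% at Baseline. The same side had 50.4% in R1 and 46.5% in R2 at Knockdown. These sides were named for high values in the clones, so their distance from the bulk populations is a description. The LAMA3 side (94 CpGs) had 94.0%, 83.3% and 82.3% in the clones, against 43.8% in R1 and 39.9% in R2. POMZP3 lies in a duplicated part of chromosome 7, where reads may be shared with near-identical copies.

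The sides that kept the least were next to H4C2, RCC1, ADAM19, RPS2 and PLEC, with mean kept shares of 15.3%, 15.7%, 16%, 20.7% and 23.8%. H4C2 encodes a replication-dependent histone H4, RCC1 the nucleotide exchange factor of the GTPase Ran, RPS2 a protein of the small ribosomal subunit and PLEC the cytoskeletal linker plectin. At the H4C2 side (upstream, 12 CpGs) mC fell to 11.9%, 15.6% and 12.8% at Knockdown in the clones and to 22.1% and 13.7% in R1 and R2, so the populations overlapped. At Recovery the clones had 13.0%, 15.8% and 25.0%, and R1 and R2 had 72.6% and 70.5%. At the ADAM19 side (downstream, 42 CpGs), next to the gene of a membrane-bound metalloprotease, the clones had 22.8%, 14.8% and 3.88% at Knockdown and 27.2%, 17.9% and 2.94% at Recovery. Baseline mC of these 5 sides ranged from 59.3% to 96.0% over libraries, and RPS2 and H4C2 belong to families with near-identical copies, where reads could be split.

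**Figure D5:**
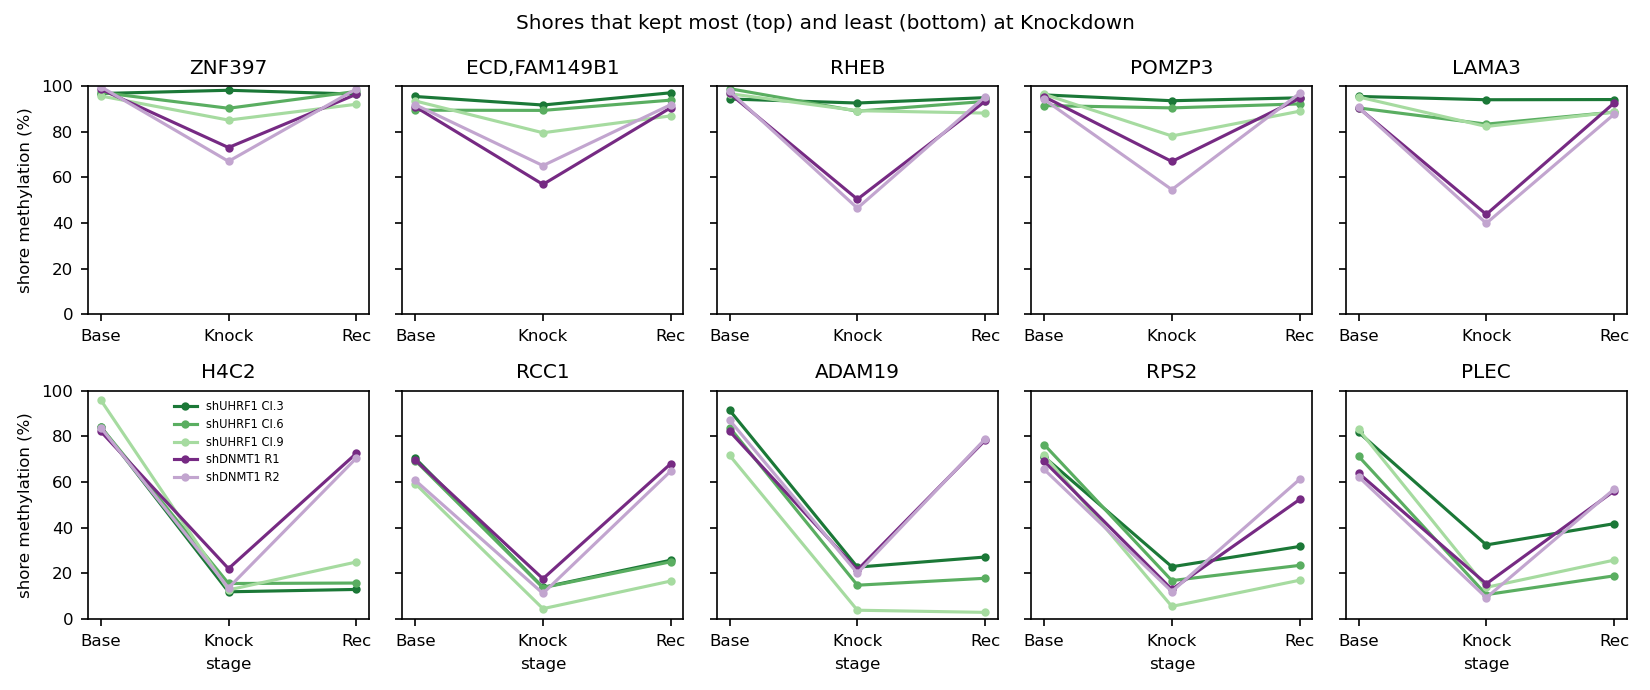
mC in percent (y axis) at Baseline, Knockdown and Recovery (x axis), a line per population and a panel per shore side, for the 5 sides that kept the most (top) and the 5 that kept the least (bottom) at Knockdown. At H4C2 and ADAM19 the Recovery points of the clones lie at 2.94 to 27.2% while those of R1 and R2 lie at 70.5 to 78.9%.

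By the rule for the largest gain from Knockdown to Recovery in shUHRF1, the sides named were those of FIGNL1, FHDC1, PARP4, DIAPH3 and PAQR3. They were taken from 14001 called sides with the same sign in all 3 clones. The candidates were 17837 sides with at least 10 CpGs and a protein-coding 5′ end, and 69.2% of all features were called higher. FIGNL1 is an ATPase of homologous recombination, FHDC1 and DIAPH3 are formins that organise actin, and PARP4 is the ADP-ribosyltransferase of vault particles. The FIGNL1 side (downstream, 13 CpGs) rose from 87.6% to 96.9% in Cl.3, from 77.8% to 95.2% in Cl.6 and from 67.7% to 93.1% in Cl.9. The rise in every clone is part of the rule that named it, and the log2 effect was 2.48 (edgeR adjusted p = 1.39e-05). The PARP4 side (downstream, 31 CpGs) rose from 83.4%, 80.5% and 66.2% to 95.2%, 93.1% and 90.5%, a log2 effect of 2.05. These sides regained 79.2% to 88.2% of the loss on average over the clones, a high share that follows from how they were named. None fell by the same rule.

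As log2 ratios of odds, the largest differences between shRNAs in that contrast were at HSD17B7, PURA, CLIC3, TNPO2 and PDCD2. The pool was 16829 of 17837 candidate sides, called with a smaller rise in shUHRF1 and changing in the same direction in all clones. The call itself excluded few sides, since 24178 of 24195 tested sides were called this way (background 97.5%). Near 100% a point of mC moves the odds more, and HSD17B7 reached 99.01% in R1 and 100% in R2 at Recovery. The order in percentage points was not tested. HSD17B7 acts in cholesterol and oestrogen synthesis, PURA binds single-stranded nucleic acids and TNPO2 carries proteins into the nucleus. The PURA side (downstream, 40 CpGs) had 79.1%, 73.6% and 40.3% at Knockdown in the clones and 80.2%, 83.1% and 48.2% at Recovery. In R1 and R2 it had 19.3% and 15.2% at Knockdown and 90.9% and 94.2% at Recovery. The log2 difference in rise was −5.43, by which the side was named, so the separation of clones and bulk populations in it is a description. The CLIC3 side (104 CpGs), next to a chloride intracellular channel gene, went from 87.0%, 87.3% and 74.5% to 90.3%, 93.2% and 92.3% in the clones and from 19.2% and 21.6% to 97.8% and 94.6% in bulk.

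The shores of the targeted genes lost methylation at Knockdown in all 5 populations and had higher mC again at Recovery. UHRF1, on chromosome 19, has an upstream side (chr19:4907253-4909252, 52 CpGs) and a downstream side (chr19:4911285-4913284, 19 CpGs). The downstream side went from 85.1%, 85.3% and 86.7% at Baseline to 52.02%, 35.2% and 26.0% at Knockdown and 67.4%, 55.1% and 48.8% at Recovery in the clones. The upstream side had 75.6%, 71.1% and 46.9% at Knockdown, above the level of the downstream side in all 3 clones. Its Baseline mC is not set beside these levels. In R1 and R2 the downstream side had 27.2% and 22.7% at Knockdown and 81.1% and 77.6% at Recovery. Both UHRF1 sides rose from Knockdown to Recovery with shUHRF1, with log2 effects of 1.18 downstream and 0.75 upstream (edgeR adjusted p = 0.000586 and 0.0135). At the DNMT1 promoter the downstream side (36 CpGs) had 80.2%, 74.8% and 55.4% at Knockdown in the clones, against 44.6% in R1 and 42.5% in R2, and had 90.9% and 90.5% at Recovery in the latter.

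In the list of DNA methylation machinery genes, 18 of 20 genes had a common UMR, and 32 of 36 shore sides rose from Knockdown to Recovery with shUHRF1. The median effect of this list was 0.87 and that of all shores 0.82. The downstream side of DNMT3B, a de novo methyltransferase, had 33.2%, 37.6% and 24.9% at Knockdown in the clones and 44.7%, 51.0% and 37.3% at Recovery. Its upstream side had 78.5%, 71.6% and 55.3% and then 87.6%, 88.2% and 76.3%, so the flanks of the same UMR lay far apart in level. Baseline mC is not set beside these levels, so they are not by themselves a difference in loss. Over all pieces with both sides, the downstream side kept more in 32.3% (Cl.9) to 41.4% (Cl.6) of pieces. Both sides of UHRF2, the paralogue of UHRF1, kept more than the median shore in all 3 clones: 90.9%, 91.6% and 83.6% upstream and 89.9%, 78.5% and 73.7% downstream.

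Of the replication and cell cycle genes, 18 of 20 had a common UMR, and 25 of 36 sides rose (median effect 0.82). The downstream side of CCND1, which encodes cyclin D1, had 49.5%, 24.9% and 26.4% at Knockdown in the clones, and its upstream side 79.7%, 69.0% and 52.5%. Of the colon epithelium and Wnt response genes, 14 of 20 had a common UMR, and 21 of 25 sides rose (0.89). In this list the upstream side of the keratin gene KRT18 started from 79.8%, 69.7% and 83.5% at Baseline and had 39.6%, 36.9% and 34.7% at Knockdown. The downstream side of the intestinal regulator CDX2 had 62.0%, 66.2% and 41.1% at Knockdown, below the 79.0%, 77.1% and 62.5% of its upstream side. For CCND1 and CDX2 these are levels without Baseline beside them, and not differences in loss.

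Of the housekeeping genes, 18 of 18 had a common UMR, and 28 of 36 sides rose (median effect 0.74). The upstream side of GAPDH rose with a log2 effect of 1.58 (edgeR adjusted p = 3.66e-05), whereas its downstream side had an effect of 0.55 (adjusted p = 0.0695). Of the tumour suppressor and repair genes, 15 of 16 had a common UMR, and 23 of 30 sides rose (0.77). Reads from GAPDH and KRT18 exons could be shared with processed copies of these genes. Of the interferon and double-stranded RNA response genes, 12 of 16 had a common UMR, and 18 of 23 sides rose (0.70). Of the developmental transcription factors, 8 of 18 had a common UMR, and 16 of 16 sides rose (0.81). The LHX2 sides in this list had effects of 1.45 upstream and 1.29 downstream. No side of any list was called lower. In every list all sides rose from Knockdown to Recovery with shDNMT1, and the list counts read against the 79.5% of all shore sides that rose with shUHRF1.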

How the data were processed

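The authors aligned bisulfite reads to hg38 with the Meth10X pipeline and deposited counts of methylated and of all reads per CpG in 3 tables; how duplicate reads were handled is not given in the sources used here. For their own analyses they kept CpGs with 5 reads or more; the deposited tables also hold lower coverage (82.3% to 88.9% of autosomal CpGs per library reached 5 reads), and all CpGs were used here. They called UMRs, LMRs and PMDs per library with MethylSeekR and combined domains with bedtools 2.25.0. The deposited domain files hold positions and classes and were used for the rule.

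From these, mC was the sum of methylated reads over the sum of reads, by distance bin and library; CpGs with more reads weigh more. Shares were formed within a population, and means ± SD taken over populations. Genes came from GENCODE 44. Tests used edgeR 4.0.16 (limma 3.58.1, pseudocount 1, as the alternative) in R 4.3.3, on features that held 5 or more CpGs and, in each library, 50 or more reads; 1 in 5 outside windows was taken. The procedure was also run on simulated reads in which few features changed and each population kept its deviation over all stages. These settings differ from the data, so that run does not measure the error of the counts given here. Named sides had at least 10 CpGs and a protein-coding 5′ end. They were the 5 called sides with the largest effect of each sign in 2 contrasts, and the 5 highest and 5 lowest in kept share. In both contrasts a called side also had to change in the same direction from Knockdown to Recovery in all clones. Where both sides of a piece qualified, the more extreme was taken. Other genes named are examples from 7 gene lists, not chosen by a stated rule. Members, lists and tests were chosen with earlier results of these data known. Pairing of stages came from the clone and bulk names: deviations from the group mean correlated at 0.272 to 0.641 within clones and 0.00816 to 0.0131 within bulk populations, so for R1 and R2 the names may mark no more than a number. Between libraries of a group, chi-square per side ran from 1.24 (R1 against R2 at Baseline) to 54.0 (Cl.3 against Cl.9 at Knockdown). It takes counts at neighbouring CpGs as independent, so its lowest values need not exceed sampling noise.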

Additional observations from a re-analysis of the deposited data

Results flagged for a closer look

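The difference between shRNAs was tested with an interaction term in edgeR. From Knockdown to Recovery 24178 of 24195 shore sides rose less with shUHRF1 than with shDNMT1, where 97.5% of all features were called the same way. From Baseline to Knockdown 11912 sides fell less with shUHRF1, against 27.9% of all features; this contrast uses Baseline, as the rule did, and the count was 368 without R1, 127 without R2 and 0 without the population block, so it is given as a description. The clones and the bulk populations cannot be told apart from the hairpins in these counts.

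The 20 named sides are listed for the same difference in rise, which nearly every feature showed, so it is not particular to them. The log2 difference (shUHRF1 minus shDNMT1) was −5.52 at HSD17B7, −5.43 at PURA, −5.40 at CLIC3, −5.15 at TNPO2 and −5.10 at PDCD2, which were named for it. Among the sides named for the largest gain in shUHRF1 it was −1.66 at FIGNL1, −2.52 at FHDC1, −3.08 at PARP4, −1.84 at DIAPH3 and −2.31 at PAQR3. Among the sides that kept the most it was −2.98 at ZNF397, −1.85 at ECD/FAM149B1, −3.82 at RHEB, −2.86 at POMZP3 and −3.17 at LAMA3. Among the sides that kept the least it was −3.02 at H4C2, −2.19 at RCC1, −3.68 at ADAM19, −2.19 at RPS2 and −2.36 at PLEC.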

How the results depend on the processing

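The edge-minus-outer differences rest on the scale. For kept share the log odds scale gave 0.189 with shDNMT1 and, with edges from the other 4 populations (chosen after seeing the data), 0.028 with shUHRF1 and 0.222 with shDNMT1, all opposite in sign to the shares. For regained share, points gained were 6.96 in shDNMT1, and downstream minus upstream 1.88 in points and 0.057 in log odds in shDNMT1, again opposite. Isolated minus close edge CpGs, −2.94 points of kept share in shDNMT1, was 0.365 as log odds (chosen after seeing the data). Apart from these and the counts below, 139 alternatives kept the sign of the mean or moved a count by less, as from 19223 to 15220 without R2 or from 11912 to 9297 by limma; among them, edge minus outer kept share as log odds with shUHRF1 had signs that differed between clones.

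Without each population in turn, the change at Knockdown ranged from −30.9 to −20.6 points (shUHRF1) and −51.5 to −50.3 (shDNMT1), edge minus outer kept share from −16.3 to −15.2 and −16.9 to −16.6, edge minus outer regained share from −26.3 to −25.0 and −4.53 to −4.11, and shore minus flank kept share from −5.59 to −4.92 and −9.95 to −9.87. Sides that rose with shUHRF1 numbered 7150 (without Cl.6) to 20823, with shDNMT1 24190 to 24195, and the shRNAs differed in rise in 23987 to 24172. Sides that fell less with shUHRF1 numbered 127 to 18812: 7173 without Cl.3, 5410 without Cl.6, 18812 without Cl.9, 368 without R1 and 127 without R2. A bulk population left alone was assumed to vary like the others. By limma 12167 sides rose with shUHRF1.

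Without the replicate block, edgeR called 0 sides higher in shUHRF1 from Knockdown to Recovery and 0 that fell less with shUHRF1, and 24190 and 23778 in the other 2 counts. The cause of the changed counts was not tested.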
